A study of Homo sapiens with 4 samples.

Results

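The 10 genes described here encode proteins of cell junctions, cell adhesion, the cytoskeleton or the matrix. They are commonly read as markers of an epithelial or a mesenchymal state. They were taken by name: CDH1, CLDN1, CLDN4, CLDN7, OCLN, TJP1 and EPCAM as 7 epithelial markers, and CDH2, VIM and FN1 as 3 mesenchymal markers. Of the 10140 gene IDs in the deposited m6A peak list, 5 belonged to these genes, and of its 20261 peaks, 9. The cells were MDA-MB-231, a widely used established line of human triple negative breast cancer. The list combined 2 input libraries of fragmented poly(A) RNA with 2 libraries enriched by immunoprecipitation (IP) of N6-methyladenosine (m6A). All 4 titles carry shNS, which appears to be the name of a control shRNA, and no treatment other than the IP is named. The treatment field of both IP libraries reads IP-YTHDC1. Since title and protocol speak of an m6A IP, they were used as m6A IP libraries.

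In epithelial tissue, neighbouring cells are joined by adherens junctions, built on E-cadherin (CDH1), and sealed by tight junctions, in which claudins (CLDN1, CLDN4, CLDN7) and occludin (OCLN) span the membrane and ZO-1 (TJP1) ties them to actin inside the cell. During epithelial-mesenchymal transition (EMT), which TGF-β can induce, cells lower these proteins and gain N-cadherin (CDH2), the intermediate filament protein vimentin (VIM) and the matrix glycoprotein fibronectin (FN1). MDA-MB-231 cells are usually described as mesenchymal-like. m6A is a mark on the mRNA itself, laid down mainly where the RNA reads GGAC or a close variant, and readers such as YTHDC1 bind it.

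The list gives 1 score per peak for all libraries together. This score was taken to be a p-value for enrichment in the IP libraries, so that a smaller score is a stronger peak. The header leaves undefined whether an FDR was meant. No read counts, fold enrichments or expression values are listed. The depth behind each peak is thus unknown, no value has a spread between replicates, and a gene without a peak may be unmethylated, weakly expressed or below detection. For the same reason the epithelial or mesenchymal character of the cells could not be checked from the list. The 10 genes are not replicates of a state, and the comparisons below are descriptions with no test.

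A peak was listed for 3 of the 7 epithelial markers, CLDN1, CLDN4 and CLDN7, and for 2 of the 3 mesenchymal markers, CDH2 and VIM. Among all 19153 protein-coding genes considered, 8176 (42.7%) had a listed peak. The epithelial count was close to that background, and the mesenchymal count rests on 3 genes. All epithelial markers with a peak were claudins. The adherens junction cadherin CDH1, the tight junction proteins OCLN and TJP1 and the epithelial adhesion molecule EPCAM had none, nor did FN1 on the mesenchymal side.

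Strand has to be read beside these counts, because 72.3% of all peaks in the list were on the minus strand. Among protein-coding genes with a strand in the RefSeq tables, a peak was listed for 30.3% of the 7820 plus-strand genes, compared with 57.5% of the 7498 minus-strand genes. The 10 markers were divided equally. CDH1, CLDN4, OCLN, EPCAM and VIM are plus-strand genes, of which 2 of 5 had a peak, and CLDN1, CLDN7, TJP1, CDH2 and FN1 are minus-strand genes, of which 3 of 5 had one. The strands of CDH1 and EPCAM are given from general knowledge. The epithelial group held 4 plus-strand genes, 1 of which had a peak, and 3 minus-strand genes, 2 of which had one. In the mesenchymal group the only plus-strand gene and 1 of 2 minus-strand genes had a peak. Strand and marker class thus cannot be told apart with 10 genes.

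All 5 markers with a peak had one whose score did not exceed the list median of 5.2e-08, a level reached by 27.8% of protein-coding genes, 12.6% of those on the plus strand and 45.3% of those on the minus strand. At a stricter limit of 1e-10, CLDN4, CLDN7, CDH2 and VIM still had a peak and CLDN1 did not. The background at that limit was 24.7% of protein-coding genes (plus strand 9.42%, minus strand 42.1%).

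**Figure D1:**
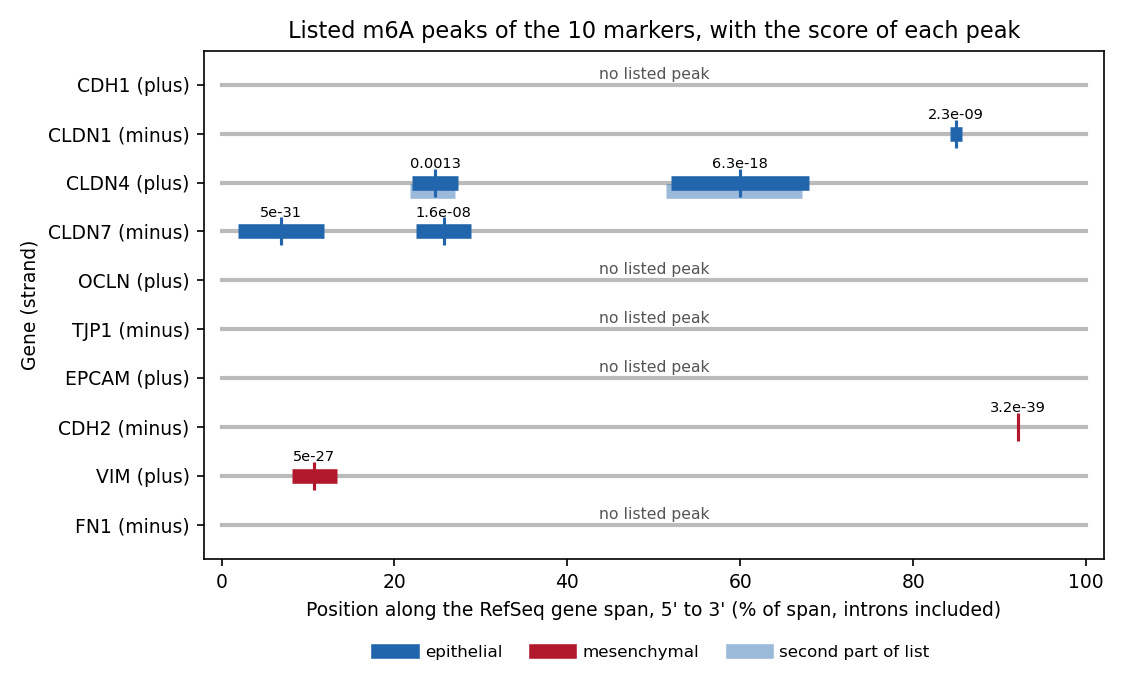
Listed peaks of the 10 markers along the RefSeq span of each gene, drawn from 5′ to 3′ in percent of the span with introns included; thick bars run from the first to the last base of a peak, introns within a peak included, and the number above each bar is its score. CLDN7 and VIM have their strongest peak in the part of the span nearest the 5′ end, CDH2 and CLDN1 in the part nearest the 3′ end, and 5 genes have no peak.

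CLDN7, a claudin that the study measured as an epithelial marker in a different cell line, had the strongest peak of the epithelial group. Its 2 peaks lay on chromosome 17 (hg38, minus strand, ENSG00000181885.18). The stronger ran from 7262823 to 7263149, was 327 bases long and had a score of 5e-31. It began 64 bases inside the 5′ end of the RefSeq span. A strongest peak that began within 100 bases of the 5′ end was found in 5.28% of the 7799 protein-coding genes that could be placed. The second peak, 355 bases further on, ran from 7262260 to 7262467, was 208 bases long and had a score of 1.6e-08. Both lay in the 5′ portion of the gene, with midpoints at 6.86% and 25.7% of the span.

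RefSeq lists a further CLDN7 start site between the 2 peaks, at 7262478, and the second peak began at base 12 from it. RefSeq (GRCh38.p14) gives 14 start-site windows for 8 of the 10 genes. The windows are short, and that of the CLDN7 start site at 7262478 ended at base 50. In the transcribed parts of the windows, this CLDN7 stretch was the only place that a marker's peak reached. It is shown because it is the reference RNA sequence under a peak, from chr17:7262438-7262467 on the minus strand, with T for U:

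CLDN7: ctggctcacctccgagccacctctgctgcg

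Nothing is capitalised, because GGAC, the core of the m6A motif, was found neither in these 30 bases nor in the 39 bases that the peak and the window share, and its reverse complement GTCC was not found there either. The same stretch of 39 bases held GGAC in 15.6% of all 35116 start-site windows, and GGAC or GTCC in 27.5%. Close variants of GGAC were not searched for, and the other 169 bases of this peak were not analysed for sequence here.

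CLDN4, a sealing claudin, lies on the plus strand of chromosome 7 (hg38, ENSG00000189143.9) in a short span of 1695 bases. It was listed with 4 peaks, which merged into 2. The stronger ran from 73831877 to 73832146, was 270 bases long and had a score of 6.3e-18, with its midpoint at 59.9% of the span. The weaker ran from 73831369 to 73831459, was 91 bases long and had a score of 0.0013, above the list median. Together the merged peaks covered 375 bases, or 22.1% of the CLDN4 span.

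The remaining 2 CLDN4 entries repeat these places. After the last chromosome the file begins again with chromosome 1, and both entries stand in this second section of 745 peaks. One ran from 73831867 to 73832132 (score 1e-17) and shared 256 bases with the stronger peak. The other ran from 73831365 to 73831453 (score 0.00058) and shared 85 bases with the weaker one. Starts differed by 10 and 4 bases, so the list holds each of these CLDN4 sites in 2 versions. In the second section as a whole, 235 peaks (31.5%) overlapped a peak of the same gene in the first. No other marker was listed there.

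CLDN1, a claudin required for the tight junction seal of the skin, had the weakest signal of the 5. Its single peak lay on chromosome 3 (hg38, minus strand, ENSG00000163347.6) from 190308105 to 190308345. It was 241 bases long and had a score of 2.3e-09. A further 2398 bases of the gene followed it towards the 3′ end, with its midpoint at 85.0% of the span. The RefSeq span of CLDN16 also covers this place, but no CLDN16 peak was listed.

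CDH2, the N-cadherin gene whose gain in place of E-cadherin is a hallmark of EMT, had the smallest score of all 10 markers. Its single peak lay on chromosome 18 (hg38, minus strand, ENSG00000170558.9) from 27952042 to 27952311, was 270 bases long and had a score of 3.2e-39. The CDH2 span is 244252 bases long, and the peak covered 0.111% of it. The midpoint was at 92.1% of the span, 19163 bases of which followed the peak. The final 10% of the span held the strongest peak of 40.4% of protein-coding genes (95% Wilson interval 39.3 to 41.5%), and the first 10% held that of 10.4% (9.73 to 11.1%). The RefSeq span of the antisense RNA gene CDH2-AS1 covers the same place, and no CDH2-AS1 peak was listed. CDH1, the cadherin that CDH2 replaces in EMT, had no peak of any gene within its span.

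VIM had 1 peak on chromosome 10 (hg38, plus strand, ENSG00000026025.16) from 17229001 to 17229489, with a score of 5e-27. It was made of blocks of 27 and 214 bases, 241 in all, which is how the list gives a peak that runs over more than 1 exon. It began 760 bases from the 5′ end of the gene, with its midpoint at 10.7% of the span. Of the 9 marker peaks it alone shared bases with a peak of the other strand. A peak of the antisense RNA gene VIM-AS1, in 4 blocks with a score of 7.2e-08, shared 132 bases with it, which was the whole of its last block (17229345 to 17229476). The other VIM-AS1 peak, from 17214988 to 17215257, had a score of 3.2e-16 and lay outside VIM. The list does not say which of the genes the shared 132 bases belong to. Without peaks that overlap one on the opposite strand, VIM has no peak left and the mesenchymal count is 1 of 3, while the epithelial count is still 3 of 7.

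None of the 5 markers without a peak had a peak of any gene in its RefSeq span, on either strand. This holds for CDH1 (98246 bases on chromosome 16), OCLN (65558 bases on chromosome 5), TJP1 (269683 bases on chromosome 15), EPCAM (17710 bases on chromosome 2) and FN1 (75204 bases on chromosome 2). CDH1, OCLN and EPCAM are plus-strand genes, where 30.3% of protein-coding genes had a peak. TJP1 and FN1 are minus-strand genes, where 57.5% did. OCLN and TJP1 have pseudogene copies, OCLNP1 and TJP1P1, to which their reads could also map, and these had no listed peak either.

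**Figure D2:**
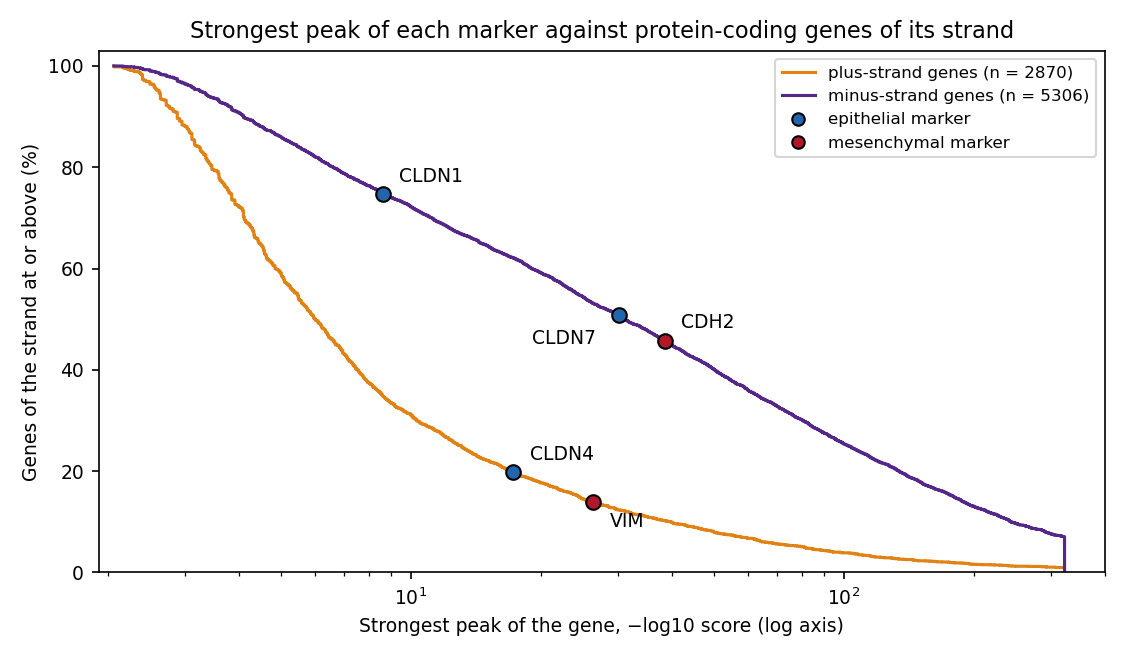
Strongest peak per gene as −log10 of the score (horizontal log axis) against the percentage of protein-coding genes with a peak on the same strand that were at least as strong (vertical axis); lines are the 2870 plus-strand and 5306 minus-strand genes, points the 5 markers with a peak, and scores listed as 0 are drawn at 323. VIM and CLDN4 lie low on the plus-strand line, at 13.9% and 19.8%, and CDH2, CLDN7 and CLDN1 lie at 45.7%, 50.8% and 74.7% on the minus-strand line.

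By score alone, the order from strongest to weakest was CDH2, CLDN7, VIM, CLDN4 and CLDN1, with −log10 scores of 38.5, 30.3, 26.3, 17.2 and 8.6. The mesenchymal markers took the first and the third place, and their values overlapped those of the epithelial markers. With no replicate value for a peak, it cannot be said which neighbours in this order differ beyond error.

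The order was different when each gene was set against protein-coding genes with a peak on its own strand. Here the strand is the one that the peak list gives, which covers all 8176 protein-coding genes with a peak, whereas the shares of genes with a peak above used the RefSeq start-site strand. Of 2870 plus-strand genes, 13.9% had a score no larger than that of VIM and 19.8% one no larger than that of CLDN4. Among 5306 minus-strand genes, 45.7% reached the score of CDH2, 50.8% that of CLDN7 and 74.7% that of CLDN1. The 2 plus-strand markers thus stood among the stronger genes of their strand, and CDH2 and CLDN7 near the middle of theirs. Against both strands together the shares were 33.2% for CDH2, 37.3% for CLDN7, 39.4% for VIM, 47.3% for CLDN4 and 60.7% for CLDN1. Within each strand the mesenchymal marker came before the epithelial markers, VIM before CLDN4 and CDH2 before CLDN7 and CLDN1. This order rests on 1 mesenchymal marker with a peak per strand, and the VIM peak shares 132 bases with VIM-AS1. It was not tested.

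Over the whole list the median spliced length was 211 bases, with quartiles of 150 and 360 bases. The strongest peaks of CLDN1, CLDN4, CLDN7, CDH2 and VIM, at 241 to 327 bases, lay between the median and the upper quartile. The weaker CLDN4 peak was shorter than the lower quartile in both of its versions, at 91 and 89 bases. Of plus-strand peaks alone, 24.1% were at least as long as the strongest CLDN4 peak and 28.0% as that of VIM. On the minus strand the shares for the strongest peaks were 35.7% (CLDN7), 45.7% (CDH2) and 49.3% (CLDN1). The midpoints of these 5 peaks shared no common position, at 6.86% (CLDN7), 10.7% (VIM), 59.9% (CLDN4), 85.0% (CLDN1) and 92.1% (CDH2) of the span. Which exon, coding sequence or UTR a peak falls in was not analysed here.

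Other genes of the same structures were taken from 4 lists, 99 genes in all, of which 55 (55.6%) had a peak. A peak was listed for 14 of 34 further tight junction genes (41.2%), close to the protein-coding background of 42.7%. The smallest scores there belonged to PARD3, a polarity protein (2.5e-70), SYMPK, which encodes symplekin (4e-25), and CLDN6, another claudin (2.5e-17). Counted over the 24 claudin genes, a set drawn up after the values were seen, 9 (37.5%) had a peak. CLDN7 and CLDN4 had the smallest scores among them, followed by CLDN6, CLDN1 and CLDN3 (5.1e-09).

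Among adherens junction and desmosome genes, 14 of 20 (70.0%) had a peak, against 42.7% of all protein-coding genes. NECTIN1, a cell adhesion receptor (1e-66), EVPL, which encodes envoplakin (2.5e-60), and PKP2, a desmosomal plakophilin (5e-53), had the smallest scores, all on the minus strand. The genes of catenins, plakoglobin and vinculin, partners of E-cadherin at the junction, were singled out after their values were seen. The catenin genes CTNND1 (1e-31), CTNNB1 (7.8e-06) and CTNNA1 (0.00068) had 1 peak each. In the same list, JUP, the plakoglobin gene, and VCL, the vinculin gene, had none. CDH1 itself thus had no peak, while the genes of some of its partners did and those of others did not. Of 18 genes of epithelial identity, 9 had a peak, nearer to that background, among them the mucin gene MUC1 (1e-116) and the keratin gene KRT8 (2e-20).

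Among mesenchymal genes, 18 of 27 (66.7%) had a peak, against 42.7% of all protein-coding genes. Of the 18 genes of this list with a strand, 11 are on the minus strand, where the background was 57.5%. The fibronectin receptor subunit ITGA5 had 3 peaks and the secreted TGF-β target CCN2 had 2, the strongest of each with a score listed as 0, which is too small to be stored. The calcium-binding protein gene S100A4 came next (1e-117). These 3 are minus-strand genes. Unlike FN1, its receptor gene ITGA5 was thus listed among the strongest of the minus strand. The gene of the other receptor subunit, ITGB1, was among the weakest there. It had 1 peak with a score of 0.00098, and 96.5% of minus-strand genes with a peak scored no higher. At scores not above the list median, 13 of 27 mesenchymal, 7 of 34 tight junction, 8 of 20 adherens junction and desmosome and 5 of 18 epithelial identity genes had a peak, against 27.8% of protein-coding genes. The backgrounds by strand at this limit were 12.6% (plus) and 45.3% (minus). For genes with a strand, the plus and minus counts were 3 of 7 and 6 of 11 (mesenchymal) and 0 of 15 and 3 of 7 (tight junction). They were 2 of 9 and 1 of 4 (adherens junction and desmosome) and 1 of 3 and 3 of 3 (epithelial identity).

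By strand, 5 of 7 plus-strand and 9 of 11 minus-strand mesenchymal genes had a listed peak of any score. For tight junction genes it was 6 of 15 and 4 of 7, for adherens junction and desmosome genes 7 of 9 and 2 of 4, and for epithelial identity genes 1 of 3 and 3 of 3. Only 59 of the 99 genes had a strand in the RefSeq tables, so these counts leave out the others. The protein-coding backgrounds were 30.3% (plus strand) and 57.5% (minus strand). The mesenchymal and the epithelial identity lists were above both, the latter on 3 genes per strand, and the adherens junction and desmosome list had the highest plus-strand share (77.8%, against 71.4% for the mesenchymal list). Of the 9 mesenchymal genes without a strand, 4 had a peak (44.4%). No test was made, since the lists were chosen with earlier results known.

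**Figure D3:**
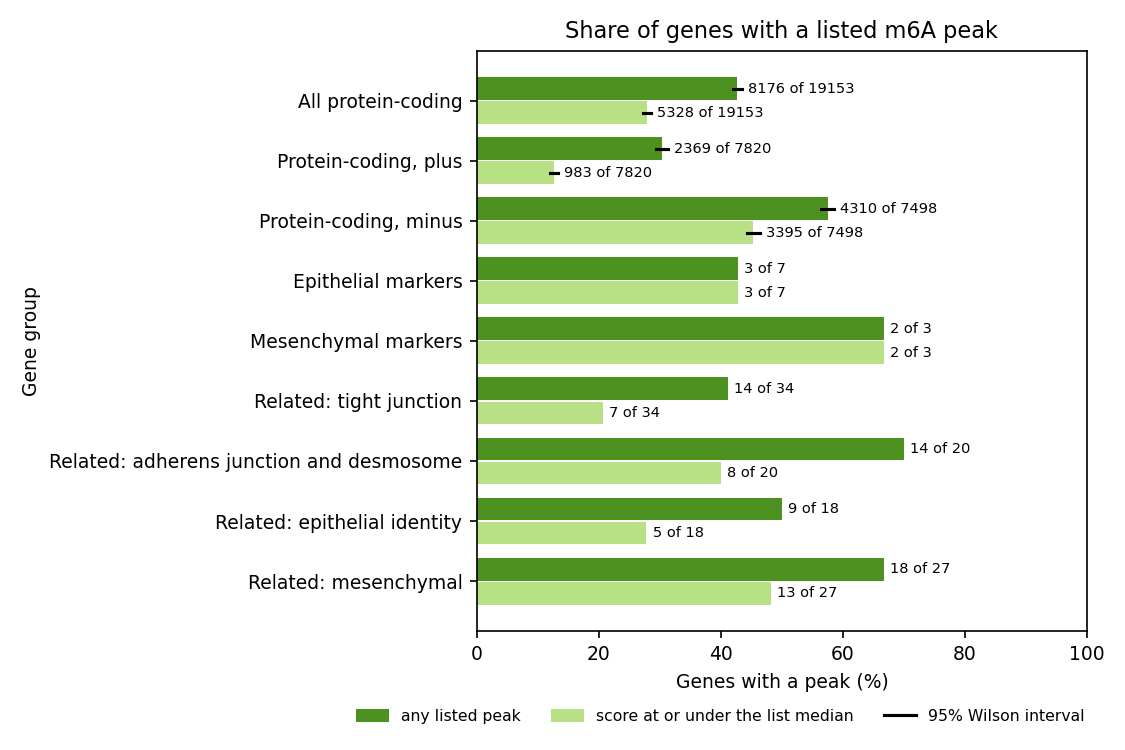
Percentage of genes with any listed peak (dark bars) and with a peak scoring no higher than the list median (light bars) for protein-coding genes, the 2 marker groups and the 4 related lists; counts stand beside the bars and black lines are 95% Wilson intervals of the protein-coding shares, which cover counting error only. The minus-strand share is above the plus-strand share, and the 3 of 7 epithelial markers lie at the level of all protein-coding genes.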

How the data were processed

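Poly(A) RNA of 2 input and 2 m6A IP libraries, grouped by title, was used by the authors to make 1 peak list. Reads were aligned with STAR to a GENCODE annotation (hg38 per the labels), peaks were called with exomePeak at default settings and filtered on fold enrichment and FDR. The deposited score was read as a p-value, and its largest value was 0.0089. Replicates had been combined before deposit, and neither depth nor counts are given.

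Ensembl IDs without version were matched to symbols (10103 of 10140), and symbols to RefSeq GRCh38.p14 for gene spans, biotypes and start-site sequences. All 10 markers matched. For the shares of genes with a peak, strand came from the start-site table, which covered 15318 of 19153 protein-coding genes. For the ranking of genes with a peak, it came from the peak list. Positions are 1-based. Peaks overlapped when their blocks shared at least 1 base. Shares carry 95% Wilson intervals (SciPy 1.17.1, Python 3.11.15). No test was run. The overlap functions were tested on simulated data. The alternatives were a score limit, merging, and omission of opposite-strand overlaps or of the second part of the list.

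The markers and related lists were chosen with earlier results of these data known. All markers are named, with any gene whose peak overlaps theirs and the 3 genes with the smallest score in each related list. A gene that this rule would name is not reported here.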

Additional observations from a re-analysis of the deposited data

How the results depend on the processing

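Without peaks that overlap one on the opposite strand, the mesenchymal markers with a peak fell from 2 to 1, since the VIM peak shares bases with VIM-AS1, and the shares of protein-coding genes with a peak became 27.6% (plus strand) and 56.0% (minus strand). With peaks at or under the list median score alone, these shares were 12.6% and 45.3%, and 33 of the 99 related genes had a peak, which follows from the removal of about as many peaks as were kept. The other alternatives left the epithelial count at 2 or 3, the mesenchymal count at 2 and the marker peaks at 7 in place of 9. No paired analysis was possible because each peak carries a single score for the 4 libraries, so that neither a replicate block nor leaving out a library could be applied. The unknown depth limits what the absence of a peak says about CDH1, OCLN, TJP1, EPCAM and FN1.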
